A study of Homo sapiens with 9 samples.

Results

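The subject of these results is the set of genes for histone modifying enzymes, histone readers and Polycomb proteins in HT29 cells, an established human colorectal cancer line. Members were taken by symbol from a table of raw read counts. They were the numbered KMT, KDM, SETD, HDAC, SIRT, KAT, PRMT, NSD, CBX, PCGF, BRD, EZH and EHMT genes, SUV39H1 and SUV39H2, EED and SUZ12. This gave 101 members among 25886 symbols, and the naming rule itself used no measured value. RNA sequencing after rRNA depletion was done on 3 libraries each of Control cells, cells with stable knockdown of DNMT1 and cells with stable knockdown of DNMT3B. The knockdown cells carried lentiviral constructs, which the column names give as short hairpins against either gene, with a control construct in the Control cells. All 3 groups had been under puromycin at 1 µg/ml for 3 passages. How many hairpins or clones stood behind each group, and whether replicates came from separate cultures, is not given in the sources used here, and the p-values therefore reflect only how far these libraries spread, possibly for technical reasons. The study asks what follows from the lower DNMT1 and DNMT3B seen under proteasome inhibitors. The comparison here asks how the transcripts of the chromatin enzymes differ when either DNA methyltransferase is lowered.

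DNMT1 copies DNA methylation to the new strand after replication, and DNMT3B can place methylation on sites that lacked it. Histone marks form a second layer of chromatin control. Writers add methyl or acetyl groups, erasers remove them, and readers with chromo- or bromodomains bind the result. Polycomb repressive complex 2 (PRC2), built on EED, SUZ12 and EZH1 or EZH2, methylates H3K27. Polycomb repressive complex 1 (PRC1) holds a PCGF subunit, and in its canonical form a chromobox protein that binds this mark. Polycomb proteins often sit at unmethylated CpG islands, and a CpG is also the site that the DNA methyltransferases act on.

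The promoter windows of EED, SUZ12, EZH2 and HDAC4 are printed because the first 3 belong to the PRC2 core, of which SUZ12 and EED fell in DNMT1 knockdown, and HDAC4 had the largest fall of any member. Each runs from 250 bases before to 50 bases after the gene's start in RefSeq (GRCh38.p14), 5′ to 3′ on the gene's own strand, and each CpG is in capitals. The windows are chr11:86244503-86244802 on the plus strand for EED, chr17:31936757-31937056 on the plus strand for SUZ12, chr7:148884242-148884541 on the minus strand for EZH2 and chr2:239274732-239275031 on the minus strand for HDAC4.
EED: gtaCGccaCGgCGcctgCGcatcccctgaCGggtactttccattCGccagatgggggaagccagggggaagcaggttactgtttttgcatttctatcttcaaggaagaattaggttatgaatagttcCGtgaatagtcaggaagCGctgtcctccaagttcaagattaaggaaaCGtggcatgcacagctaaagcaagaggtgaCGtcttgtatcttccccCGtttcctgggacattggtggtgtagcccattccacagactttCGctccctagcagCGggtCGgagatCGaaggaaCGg
SUZ12: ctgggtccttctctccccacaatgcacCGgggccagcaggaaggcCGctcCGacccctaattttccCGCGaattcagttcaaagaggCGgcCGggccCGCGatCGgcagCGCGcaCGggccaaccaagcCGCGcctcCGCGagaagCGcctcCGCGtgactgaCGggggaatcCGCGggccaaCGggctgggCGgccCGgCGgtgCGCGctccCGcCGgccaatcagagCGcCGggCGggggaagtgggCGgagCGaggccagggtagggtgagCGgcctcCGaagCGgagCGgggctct
EZH2: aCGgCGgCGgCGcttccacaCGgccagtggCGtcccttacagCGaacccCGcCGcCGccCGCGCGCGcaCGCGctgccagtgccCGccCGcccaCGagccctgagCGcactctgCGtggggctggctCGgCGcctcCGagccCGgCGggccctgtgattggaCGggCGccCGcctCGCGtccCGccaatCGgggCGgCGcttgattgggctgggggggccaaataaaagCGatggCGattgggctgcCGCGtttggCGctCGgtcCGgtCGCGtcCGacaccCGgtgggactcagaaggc
HDAC4: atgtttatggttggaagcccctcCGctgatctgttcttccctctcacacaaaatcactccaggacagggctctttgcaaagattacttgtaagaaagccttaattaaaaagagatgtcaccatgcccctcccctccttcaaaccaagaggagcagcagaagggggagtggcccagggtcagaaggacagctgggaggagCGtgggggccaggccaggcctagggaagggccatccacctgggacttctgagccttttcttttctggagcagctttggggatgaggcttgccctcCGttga
The SUZ12 window held 40 CpGs and the EZH2 window 46, against 16 for EED and 3 for HDAC4. Of the 101 members, 90 matched a RefSeq promoter. Their median was 29.5 CpGs per window, against 14 over all 27305 promoters of the same length. The ratio of observed to expected CpGs was above 0.6 in 80 of the 90 (88.9%), against 48.9% of all promoters. Windows were also searched on both strands for the E2F-like letters TTTCCCGC, TTTGGCGC, TTTCGCGC and TTTGCCGC, each of which contains a CpG. These were found in 8 members (8.89%), namely BRD7, CBX3, EZH1, EZH2, KDM1B, NSD2, SIRT6 and SUZ12, against 3.33% of all promoters. The promoters in these comparisons were not limited to those of tested genes. The part of CpG content in the E2F-like matches was not tested. Methylation was not measured in these samples, nor was the start site that HT29 cells use. The RefSeq start of HDAC4 lies inside the longer gene span of GENCODE v29 (chr2:239048168-239401654).

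Levels are given as CPM (counts of a gene per 1e6 counts of the TMM-scaled library size), with the SD over 3 libraries. DNMT1 was 458 ± 10 CPM in Control, 252 ± 4.7 in its own knockdown and 488 ± 1.9 in DNMT3B knockdown. DNMT3B was 61.3 ± 1.2 CPM in Control, 64.2 ± 0.32 in DNMT1 knockdown and 30.5 ± 2.5 in its own knockdown. DNMT1 was thus at 55% and DNMT3B at 49.7% of Control in the cells where each was targeted, with no overlap between libraries. An exact two-sided permutation test gave p = 0.1 for each, the smallest that 3 against 3 libraries allow. The DNA methyltransferase gene DNMT3A, which was not targeted, was also lower in DNMT3B knockdown. It was 36.04 ± 1.02 CPM in Control, 37.28 ± 1.03 in DNMT1 knockdown and 24.68 ± 1.56 in DNMT3B knockdown. The DNMT3B knockdown libraries, at 23.3 to 26.4 CPM, lay below all others for this gene. The part of the lower DNMT3A in the DNMT3B knockdown results was not tested. Libraries held 18.8 to 33.7 M counts (M is 1e6), and members took 1.2 to 1.26% of them. The shallowest library, DNMT3B knockdown replicate 2, was the lowest of its group for 42 of 98 members (42.9%), against 35.9% of all tested genes. Control replicate 3, with 31.3 M counts, was the lowest of its group for as many members (42.9%), against 32.1% of all tested genes. Epithelial markers of the colon summed to 2411 to 2518 CPM in Control, 2527 to 2655 with DNMT1 lowered and 2552 to 2792 with DNMT3B lowered. Stromal markers summed to 20.7 to 25.6, 23.5 to 28.4 and 32.5 to 33.8 CPM in the same order, with 2 of 7 at 0 in every library. Leukocyte markers summed to 22.0 to 22.6, 22.3 to 23.4 and 35.0 to 40.1 CPM in that order. Endothelial markers summed to 2.98 to 3.50, 2.31 to 2.66 and 4.50 to 5.22 CPM. Most of the higher sums in DNMT3B knockdown came from 1 gene per list. CD68 went from a mean of 17.7 CPM in Control to 32.9, COL1A1 from 17.6 to 27.5 and VWF from 1.2 to 2.6, while PTPRC stayed at 0.101 and 0.148 CPM and CD3E at 0.0124 and 0.018. In the epithelial list KRT8 went from 1004 CPM in Control to 1070 with DNMT1 lowered and 1168 with DNMT3B lowered. EPCAM fell from 285 to 249 and 235 in the same order. CDX1 and CEACAM5 were at 0 CPM in Control, LGALS4 at 0.295 and VIL1 at 0.905. Of the 11 epithelial genes 8 were tested, and in each knockdown 3 were called higher and 1 lower. The part of the cells or genes of these lists in the results was not tested.

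Of the members, 98 were tested and 3 were not. KDM4E had 1 count in all, in DNMT1 knockdown replicate 1. PRMT8 had 2 counts, in DNMT1 knockdown replicate 3 and DNMT3B knockdown replicate 2, and KDM5D had none. A count of 0 allows up to 3 counts, or 0.0891 to 0.16 CPM depending on the library. Per kilobase of GENCODE v29 exon, which is approximate because the authors' annotation is not given, the highest mean Control levels were those of PRMT1 (192 CPM per kb), BRD2 (110), HDAC1 (90.6), KDM1A (83.5) and CBX3 (72.3). The lowest of the tested members were HDAC9 (0.537 CPM per kb), KDM4D (0.930) and HDAC8 (1.54). Members varied little between libraries of a group, with a median coefficient of variation of 3.12% (1.07 to 8.57%).

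Changes among the members were small, and the share of members called was close to that of all genes. A gene was called changed at an adjusted p below 0.05 in edgeR's quasi-likelihood test over all 16660 tested genes. In DNMT1 knockdown 44 of 98 members (44.9%) were called against Control, 20 higher and 24 lower, where 41.8% of all tested genes were called (21% higher, 20.8% lower). In DNMT3B knockdown 51 members (52%) were called, 27 higher and 24 lower, against 47.7% of all genes (23.1% higher, 24.6% lower). Control libraries and knockdown libraries did not overlap for 53 members in DNMT1 knockdown (49.4% of all genes) and for 62 in DNMT3B knockdown (54.1% of all genes). Called changes of at least 1.2-fold numbered 10 members in DNMT1 knockdown and 13 in DNMT3B knockdown, where 18.8% and 24.8% of all genes passed the same rule. At 1.5-fold there were 0 in DNMT1 knockdown and 1 in DNMT3B knockdown, HDAC4, where 5.57% and 7.52% of all genes passed. The median absolute log2 fold change of the members was 0.10 in DNMT1 knockdown, against 0.15 over all genes, and 0.11 in DNMT3B knockdown, against 0.17. These fold sizes were not matched for level. All 98 tested members averaged at least 2 CPM, as did 13486 genes in all. With only such genes, 43.9% of members were called in DNMT1 knockdown against 48.3% of genes. In DNMT3B knockdown 52% of members were called against 54.1% of genes. The 2 knockdowns were set against the same Control libraries, so their values are given side by side below and were compared only by a direct test of one knockdown against the other. Where leaving out a single library ended a named call, that library and the adjusted p without it are given beside the call. For PRMT2, PRMT3 and PRMT9 only the number of calls left is given.

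**Figure D1:**
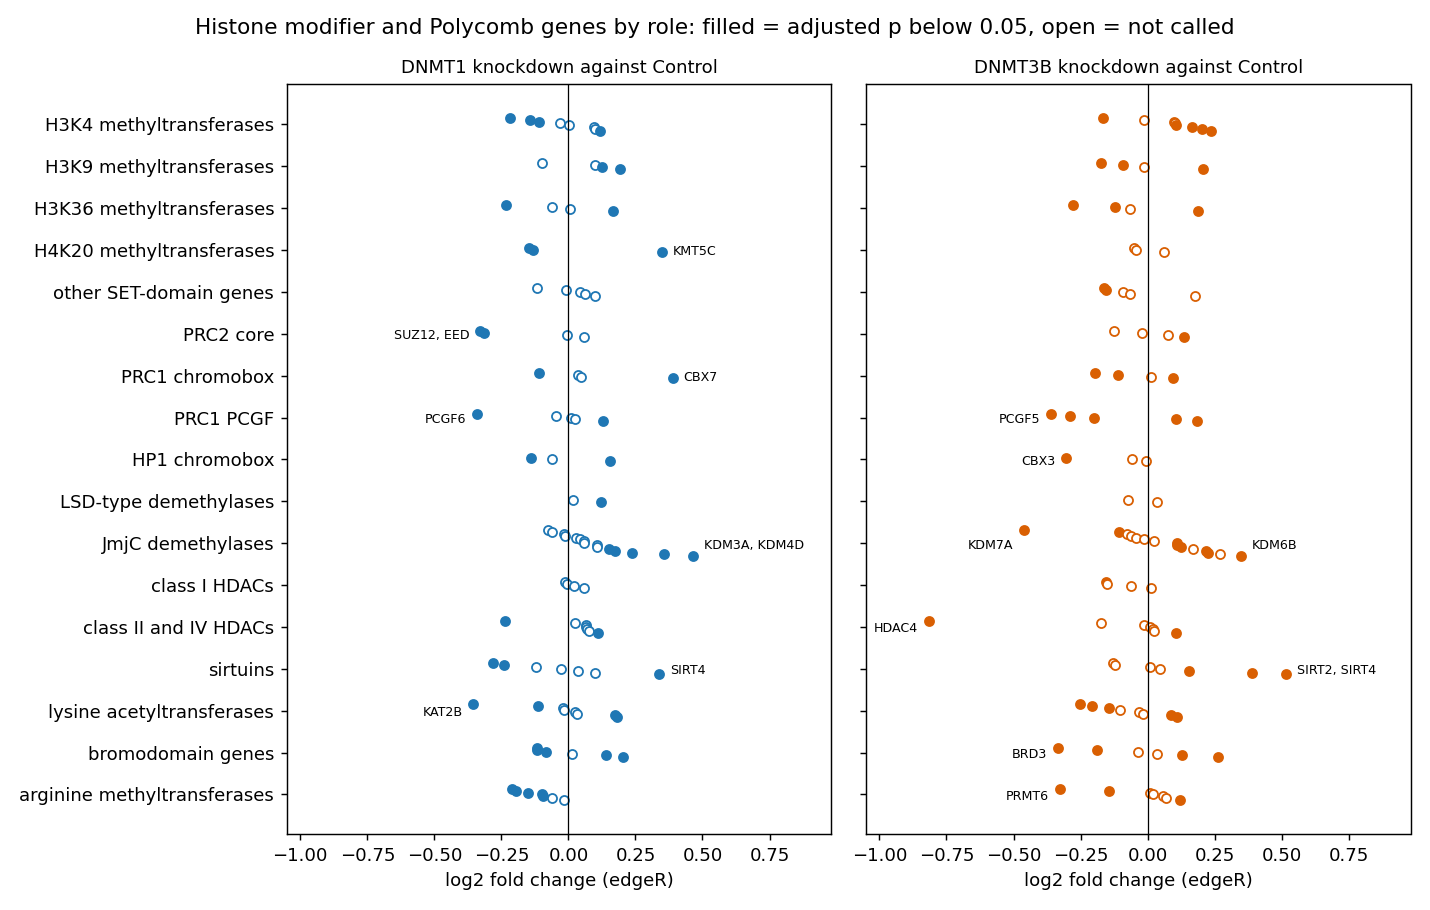
Log2 fold change (x axis) against Control of the members reported here, one row per role on the y axis, for DNMT1 knockdown (left) and DNMT3B knockdown (right). Filled points passed the adjusted p threshold of 0.05, open points did not, and genes beyond 0.3 in a called or uncalled change are named; HDAC4 at -0.81 in DNMT3B knockdown stands farthest from 0.

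The PRC2 core genes are here the members EZH1, EZH2, EED and SUZ12. Among them, SUZ12 and EED fell in DNMT1 knockdown, to 79.7 and 80.5% of Control, while neither catalytic gene was called. SUZ12, the scaffold of the complex (chr17:31937018-32001045 in GENCODE v29, GRCh38), was 138, 139 and 130 CPM in the Control libraries, 109, 108 and 108 in DNMT1 knockdown and 136, 130 and 135 in DNMT3B knockdown. The 3 DNMT1 knockdown libraries lay below all 6 others. The log2 fold change was -0.33 ± 0.035 (SE; edgeR adjusted p = 5.47e-09) in DNMT1 knockdown and -0.02 in DNMT3B knockdown (adjusted p = 0.668). The direct comparison of the knockdowns gave -0.31 ± 0.036 (adjusted p = 2.11e-08), lower with DNMT1 knockdown. SUZ12 has a partial pseudogene copy, and how reads shared with it were counted is not stated.

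EED, which binds trimethylated H3K27 and stimulates the enzyme, lies at chr11:86244544-86278813. It was 21, 21.5 and 21.7 CPM in Control, 17.1, 17 and 17.5 in DNMT1 knockdown and 18.9, 20.9 and 19.3 in DNMT3B knockdown. DNMT1 knockdown was again below both other groups, and the DNMT3B knockdown libraries lay between them. The log2 fold change was -0.31 ± 0.058 (edgeR adjusted p = 5.54e-05) in DNMT1 knockdown and -0.13 ± 0.057 (adjusted p = 0.0684) in DNMT3B knockdown. Without DNMT3B knockdown replicate 2 the latter became -0.16 with adjusted p = 0.0371. The knockdowns differed by -0.19 (adjusted p = 0.0135), and without that library by -0.15 (adjusted p = 0.0819).

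EZH2, the main H3K27 methyltransferase of dividing cells (chr7:148807383-148884321), was 95.9, 100 and 92.2 CPM in Control, 101, 95.6 and 103 in DNMT1 knockdown and 107, 103 and 106 in DNMT3B knockdown. It rose in DNMT3B knockdown by 0.13 ± 0.038 on the log2 scale (edgeR adjusted p = 0.00409), with no overlap with Control. In DNMT1 knockdown its change was 0.06 (adjusted p = 0.241). EZH1, the paralogue with weaker activity (chr17:42700275-42745049), was 41.5 ± 2.2 CPM in Control, 41.3 ± 0.9 in DNMT1 knockdown and 43.6 ± 2.1 in DNMT3B knockdown, and was not called (adjusted p = 0.932 and 0.183). Without Control replicate 2, EZH1 in DNMT3B knockdown passed at 0.12 with adjusted p = 0.0476. Genes of S phase, listed as markers of proliferation, summed to 3187 to 3303 CPM in Control, 2862 to 2978 with DNMT1 lowered and 2773 to 2917 with DNMT3B lowered. Of 16 such genes, 11 and 13 were called lower and 0 higher, where 20.8% and 24.6% of all genes were lower. The part of the S phase genes in the PRC2 values was not tested.

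Accessory subunits of PRC2 steer the complex to chromatin. The list of 9 genes set beside the core members also holds RBBP4 and RBBP7, histone chaperones often counted with the core. Of the 9, 2 were higher and 5 lower in DNMT1 knockdown (21% of all genes were higher and 20.8% lower). In DNMT3B knockdown 0 were higher and 8 lower (23.1% and 24.6% of all genes). Without DNMT1 knockdown replicate 2 those lower in DNMT1 knockdown numbered 3. JARID2, a substoichiometric subunit, was 80.8, 83.5 and 78.7 CPM in Control, 118, 112 and 116 in DNMT1 knockdown and 71.5, 68.1 and 72.5 in DNMT3B knockdown. It stood at 142% of Control in the former (log2 0.51 ± 0.037, edgeR adjusted p = 8.65e-13) and at 87.5% in the latter (-0.19 ± 0.039, adjusted p = 0.000127). The direct difference was 0.70 (adjusted p = 8.98e-16). EPOP, which links PRC2 to elongin, was 84.7% of Control in DNMT1 knockdown (adjusted p = 3.97e-06) and 72.5% in DNMT3B knockdown (adjusted p = 8.19e-12). PHF19, a Polycomb-like protein, was 78.9% (adjusted p = 1.18e-08) and 82.7% (adjusted p = 5.09e-07). RBBP4 was the other gene of this list that rose in DNMT1 knockdown, to 112% of Control (adjusted p = 0.000237). In DNMT3B knockdown its paralogue RBBP7 fell to 84% (adjusted p = 2.81e-06).

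**Figure D2:**
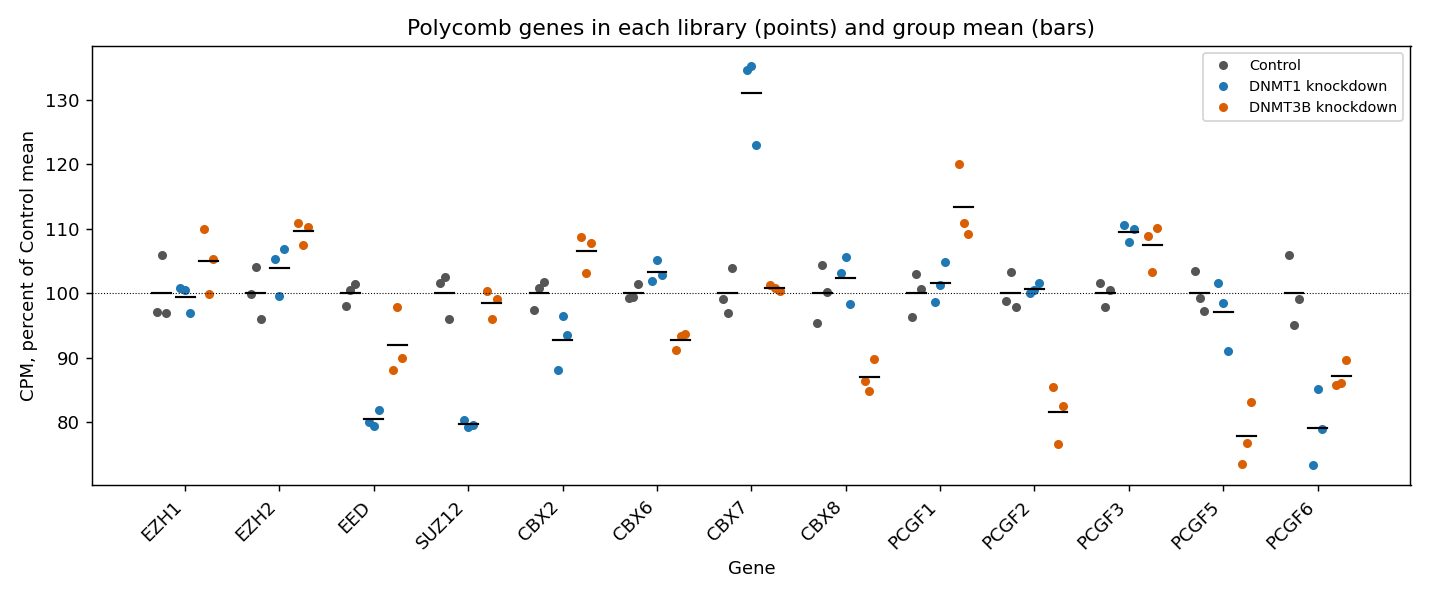
CPM of PRC2 core, PRC1 chromobox and PCGF genes in each library as a percent of the gene's Control mean (y axis), with points for libraries, bars for group means and the dotted line at 100%. SUZ12 and EED in DNMT1 knockdown sit near 80%, CBX7 in DNMT1 knockdown near 131%, and PCGF2 and PCGF5 in DNMT3B knockdown near 80%.

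Among the PRC1 chromobox genes, whose proteins read H3K27 methylation, CBX7 rose in DNMT1 knockdown, and CBX6 and CBX8 fell in DNMT3B knockdown. CBX2 was called lower in the former and higher in the latter, with values given further on. CBX7 (chr22:39120167-39152674) was 17.7, 17.4 and 18.6 CPM in Control, 24.1, 24.2 and 22 in DNMT1 knockdown and 18.1, 18 and 18 in DNMT3B knockdown. Every DNMT1 knockdown library was above the other 6. The log2 fold change was 0.39 ± 0.057 (edgeR adjusted p = 1.87e-06), and in DNMT3B knockdown it was 0.01 (adjusted p = 0.901). The knockdowns differed by 0.38 ± 0.060 (adjusted p = 4.52e-06). On the opposite strand another annotated gene covers 32.1% of the CBX7 exon bases, and without the strand used in counting its reads cannot be told apart from those of CBX7. CBX8 fell to 87.3% of Control in DNMT3B knockdown (adjusted p = 0.0011) and CBX6 to 92.7% (adjusted p = 0.00501).

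PCGF genes define the variants of PRC1. All 5 with a numbered PCGF name were called in DNMT3B knockdown, 2 higher and 3 lower. Of all genes 47.7% were called there (23.1% higher, 24.6% lower). PCGF5 was 57.8, 55.5 and 54.4 CPM in Control, 56.7, 55 and 50.9 in DNMT1 knockdown and 41, 42.9 and 46.5 in DNMT3B knockdown. It fell to 77.8% of Control in DNMT3B knockdown (log2 -0.36 ± 0.048, edgeR adjusted p = 2.38e-07). PCGF2, also known as MEL18, was 42.1, 44 and 41.6 CPM in Control, 42.6, 42.8 and 43.3 in DNMT1 knockdown and 36.4, 32.6 and 35.1 in DNMT3B knockdown. That fall was to 81.9% of Control (adjusted p = 6.3e-06), with the caveat that exons of CISD3 and another gene on the opposite strand cover 45% of PCGF2. For both genes the DNMT3B knockdown libraries lay below the other 6, and the direct differences were 0.32 (adjusted p = 3.77e-06) for PCGF5 and 0.30 (adjusted p = 5.47e-06) for PCGF2. PCGF6, of the variant with MGA and L3MBTL2, fell in DNMT1 knockdown from 32.6, 29.3 and 30.5 CPM to 22.6, 26.2 and 24.3 (78.9%, adjusted p = 1e-05), and stood at 26.4, 26.5 and 27.6 in DNMT3B knockdown (87.1%, adjusted p = 0.00359). PCGF1, of the variant with KDM2B and BCOR, rose to 114% in DNMT3B knockdown (adjusted p = 0.00339). PCGF3 rose to 109% of Control in DNMT1 knockdown (adjusted p = 0.00277). In DNMT3B knockdown it was at 108% (adjusted p = 0.0133), a call lost without Control replicate 2 (0.0522) or DNMT3B knockdown replicate 3 (0.0771).

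Of 16 listed PRC1 partners and deubiquitinase genes, 5 rose and 2 fell in DNMT1 knockdown (21% and 20.8% of all genes). In DNMT3B knockdown 3 rose and 2 fell (23.1% and 24.6% of all genes). PHC2, a polyhomeotic subunit that polymerises, was 228, 228 and 234 CPM in Control, 299, 313 and 315 in DNMT1 knockdown and 243, 237 and 237 in DNMT3B knockdown (log2 0.43 in DNMT1 knockdown, edgeR adjusted p = 2.52e-12). Its paralogue PHC3 fell to 76.5% of Control in DNMT3B knockdown (adjusted p = 3.18e-10). In DNMT1 knockdown PHC3 was at 92.9% (adjusted p = 0.0179), which did not hold without Control replicate 1 (0.0951), DNMT1 knockdown replicate 2 (0.0759) or DNMT1 knockdown replicate 3 (0.0582). BCOR, a corepressor of variant PRC1, was 114% (adjusted p = 0.000286) and 76.8% (adjusted p = 3.76e-09), with a direct difference of 0.57 (adjusted p = 6.06e-13). BMI1, a PCGF protein by another name, was 133% of Control in DNMT3B knockdown (adjusted p = 1.74e-05) and 103% in DNMT1 knockdown (adjusted p = 0.647). RING1, a ubiquitin ligase of H2A, rose to 116% in DNMT1 knockdown (adjusted p = 0.00037).

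The 3 HP1 genes, whose chromodomains read H3K9 methylation, did not move as a set. CBX3 (HP1 gamma) fell from 158, 168 and 164 CPM in Control to 149, 153 and 144 in DNMT1 knockdown (90.9%, edgeR adjusted p = 0.00245) and 126, 137 and 134 in DNMT3B knockdown (81%, adjusted p = 3.14e-08). CBX1 (HP1 beta) rose to 111% in DNMT1 knockdown (adjusted p = 0.000354) and was 99.7% in DNMT3B knockdown. CBX5 (HP1 alpha) was 95.9 and 96.1% of Control and was not called. Among the 4 H3K9 methyltransferase genes, EHMT1 and EHMT2, which form the G9a-GLP dimer, rose in DNMT1 knockdown to 114% (adjusted p = 5.72e-05) and 109% (adjusted p = 0.0064). The heterochromatin enzymes SUV39H1 and SUV39H2 went different ways in DNMT3B knockdown. SUV39H1 was 38.7, 35.7 and 36.8 CPM in Control and 42.9, 42.1 and 43.4 in DNMT3B knockdown (115%, adjusted p = 0.000415), with an opposite-strand gene over 21.5% of its exon bases. SUV39H2 was 36.8, 38.3 and 34.2 CPM in Control and 34.6, 30.2 and 31.6 in DNMT3B knockdown, with 1 library overlapping Control (88.5%, adjusted p = 0.00651, and 0.0556 without DNMT3B knockdown replicate 2).

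Of the 8 H3K4 methyltransferase genes, 1 rose and 3 fell in DNMT1 knockdown (21% and 20.8% of all genes). In DNMT3B knockdown 5 rose and 1 fell (23.1% and 24.6% of all genes). In DNMT1 knockdown 1 was lower without Control replicate 2 or DNMT1 knockdown replicate 1, 0 were higher without Control replicate 3, and 3 were higher without DNMT3B knockdown replicate 1 or 2. In DNMT3B knockdown 3 were higher without Control replicate 1 or 3 or DNMT3B knockdown replicate 1 or 3. KMT2D, an enhancer H3K4 methyltransferase, was 956, 1019 and 963 CPM in Control, 792, 848 and 884 in DNMT1 knockdown and 1099.8, 993 and 1052 in DNMT3B knockdown. It was lower in DNMT1 knockdown (85.9%, edgeR adjusted p = 3.75e-05). KMT2B rose to 118% of Control in DNMT3B knockdown (adjusted p = 3.62e-05) and KMT2A, the MLL1 gene, to 112% (adjusted p = 0.000347). Exons of other annotated genes overlap 22.6% of KMT2A, nearly all on its own strand. KMT2C, the paralogue of KMT2D, rose to 115% (adjusted p = 1.62e-05) in DNMT3B knockdown, and was 109% in DNMT1 knockdown (adjusted p = 0.00662, and 0.0515 without Control replicate 3). SETD7, a monomethyltransferase, was the 1 that fell in DNMT3B knockdown, to 89.1% (adjusted p = 7.09e-05). KMT2E and SETD1B were between 99 and 107% of Control in each knockdown and did not pass. Without single libraries they reached adjusted p values as low as 0.0153 (KMT2E in DNMT1 knockdown, without its replicate 2) and 0.00188 (SETD1B in DNMT3B knockdown, without its replicate 2). Of the 10 COMPASS partners, RBBP5, a core subunit of every such complex, was 61.3, 59.5 and 61 CPM in Control, 55.5, 56.5 and 54.5 in DNMT1 knockdown and 32.6, 34 and 33.9 in DNMT3B knockdown. At 55.2% of Control (log2 -0.86 ± 0.043, adjusted p = 5.56e-17) it fell farther than any member. Its core partner WDR5 was 116% (adjusted p = 1.47e-05) and 111% (adjusted p = 0.00134) of Control, and ASH2L and DPY30 were not called.

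NSD1, which dimethylates H3K36, was 466, 467 and 449 CPM in Control, 393, 390 and 393 in DNMT1 knockdown and 390, 379 and 371 in DNMT3B knockdown. All 6 knockdown libraries lay below Control (85.1%, edgeR adjusted p = 6.44e-07, and 82.5%, adjusted p = 1.73e-08). SETD2, which trimethylates H3K36, was 112 and 114% of Control in the same order (adjusted p = 0.000488 and 7.42e-05). NSD2 was at 100 and 95.4% and was not called, and NSD3 fell to 91.8% in DNMT3B knockdown (adjusted p = 0.00248). Of the 3 H4K20 methyltransferase genes, 1 was called higher and 2 lower in DNMT1 knockdown (41.8% of all genes were called) and 0 in DNMT3B knockdown (47.7% of all genes), and the difference in these counts was not tested. KMT5C, which trimethylates H4K20 in heterochromatin, was 15.1, 15.7 and 16.8 CPM in Control, 18.8, 21.7 and 19.9 in DNMT1 knockdown and 17, 14.1 and 14.7 in DNMT3B knockdown. The rise was to 127% (log2 0.35 ± 0.068, adjusted p = 0.000116), and the direct difference was 0.39 (adjusted p = 3.92e-05). KMT5B fell in DNMT1 knockdown to 90.3% (adjusted p = 0.0019). KMT5A, the monomethyltransferase, was 91.3% (adjusted p = 0.0116), a call lost without Control replicate 2 (0.114) or DNMT1 knockdown replicate 2 (0.0578). In DNMT3B knockdown KMT5A passed without Control replicate 2 (0.0299). Of the 5 other SET-domain genes, SETD5 fell in DNMT3B knockdown to 89.2% (adjusted p = 0.000193). SETD6 was at 89.7% (adjusted p = 0.0148, and 0.196 without DNMT3B knockdown replicate 1), with CNOT1 on the opposite strand over 29.9% of its exon bases. In DNMT1 knockdown 0 of the 5 were called, and 1, SETD4, without DNMT1 knockdown replicate 2 (0.0314).

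Among the 15 tested JmjC demethylase genes, 5 rose and 0 fell in DNMT1 knockdown (21% and 20.8% of all genes). In DNMT3B knockdown 6 rose and 2 fell (23.1% and 24.6% of all genes). KDM3A, an H3K9 demethylase, was 96.5, 98.9 and 96.5 CPM in Control, 127, 126 and 121 in DNMT1 knockdown and 106, 104 and 105 in DNMT3B knockdown. The 3 groups did not overlap, with log2 fold changes of 0.36 ± 0.034 (edgeR adjusted p = 5.28e-10) and 0.11 ± 0.035 (adjusted p = 0.00982) and a direct difference of 0.25 (adjusted p = 7.32e-07). KDM6B, an H3K27 demethylase that opposes PRC2, was 138, 153 and 144 CPM in Control, 158, 173 and 180 in DNMT1 knockdown and 196, 173 and 183 in DNMT3B knockdown. All knockdown libraries were above Control, at 118% (adjusted p = 7.61e-05) and 127% (adjusted p = 1.08e-07). The other H3K27 demethylase gene, KDM6A, was at 95.8 and 102% of Control and was not called.

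KDM7A, a demethylase of dimethylated H3K9 and H3K27, had the second largest fall in DNMT3B knockdown. It was 55.6, 54.7 and 55 CPM in Control, 51.5, 53.4 and 51.9 in DNMT1 knockdown and 40.3, 39.6 and 40 in DNMT3B knockdown. The fall was to 72.7% of Control (log2 -0.46 ± 0.042, edgeR adjusted p = 9.42e-11), while the DNMT1 knockdown value of 94.9% was not called (adjusted p = 0.133). KDM4D, a low-level H3K9 demethylase, was 2.8, 2.68 and 2.82 CPM in Control, 3.84, 3.84 and 3.82 in DNMT1 knockdown and 3.31, 3.88 and 2.99 in DNMT3B knockdown. Its rise in DNMT1 knockdown was the largest by fold of any member there (log2 0.47 ± 0.124, adjusted p = 0.00281), and in DNMT3B knockdown 0.27 did not pass (adjusted p = 0.084, and 0.0419 without its replicate 3). KDM5B, an H3K4 demethylase, was 113% (adjusted p = 0.000145) and 116% of Control (adjusted p = 3.94e-06), and KDM4B was 111% (adjusted p = 0.00136) and 117% (adjusted p = 6.3e-06). KDM2B, which brings variant PRC1 to CpG islands, was 92.9% of Control in DNMT3B knockdown (adjusted p = 0.0118), a call lost without Control replicate 1 (0.0605) or DNMT3B knockdown replicate 2 (0.083). KDM4C, the other call at the edge in that knockdown (108%, adjusted p = 0.0457), was lost without 4 libraries in turn, namely Control replicates 1 (0.0832) and 3 (0.107) and DNMT3B knockdown replicates 1 (0.0761) and 2 (0.153). KDM1A, the flavin-dependent LSD1 gene, rose to 109% in DNMT1 knockdown (adjusted p = 0.0027), and its paralogue KDM1B was not called. KDM2A, KDM5A and KDM8 were not called in any comparison.

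Of the other listed erasers, JMJD1C, a relative of KDM3A, was 127% of Control in DNMT1 knockdown (edgeR adjusted p = 8.6e-10) and 108% in DNMT3B knockdown (adjusted p = 0.00625). JMJD6 fell in DNMT1 knockdown to 79.8% (adjusted p = 7.45e-09) and was 99.5% in DNMT3B knockdown. RIOX1 was 140% in DNMT3B knockdown (adjusted p = 7.48e-05).

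Among the zinc-dependent deacetylase genes HDAC4 changed most. HDAC4, a class IIa deacetylase that shuttles between nucleus and cytoplasm, was 49.7, 48.9 and 49.1 CPM in Control, 51.9, 51.7 and 51 in DNMT1 knockdown and 28.6, 28.5 and 27 in DNMT3B knockdown. The 3 DNMT3B knockdown libraries lay far below the other 6, which together spanned 48.9 to 51.9 CPM. HDAC4 stood at 56.9% of Control (log2 -0.81 ± 0.045, edgeR adjusted p = 8.58e-16) and the direct difference between the knockdowns was 0.88 ± 0.046 (adjusted p = 2.87e-16). In DNMT1 knockdown HDAC4 was at 105% and was not called (adjusted p = 0.21). The HDAC4 window printed above, at a start inside the longer gene span, held the fewest CpGs of the 4 shown. Windows of the next largest falls in DNMT3B knockdown held 56 (KDM7A), 55 (PCGF5), 56 (BRD3), 25 (PRMT6), 19 (CBX3), 2 (PCGF2) and 7 (NSD1). A link between CpG number and change was not tested.

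HDAC9, another class IIa gene, was lower in DNMT1 knockdown, going from 7.22, 6.67 and 7.13 CPM to 5.61, 6.56 and 5.73 (85%, edgeR adjusted p = 0.0389), a call that did not hold with DESeq2 (adjusted p = 0.146) or without Control replicate 1 (adjusted p = 0.116), Control replicate 3 (0.0952), DNMT1 knockdown replicate 1 (0.152) or DNMT1 knockdown replicate 3 (0.135). HDAC7 was 108% of Control in DNMT1 knockdown (adjusted p = 0.0412), and not called without Control replicate 1 (0.158) or 2 (0.0709) or DNMT1 knockdown replicate 2 (0.147) or 3 (0.142). HDAC6, the tubulin deacetylase, was 108% in DNMT3B knockdown (adjusted p = 0.0365), and not called without Control replicate 2 (0.132) or DNMT3B knockdown replicate 1 (0.0877), 2 (0.0617) or 3 (0.0544). HDAC11, the class IV gene, was at 105 and 88.7% of Control and did not pass (adjusted p = 0.511 and 0.0589). Of the class I genes, HDAC1 fell in DNMT3B knockdown from 194, 192 and 191 CPM to 173, 178 and 167 (89.8%, adjusted p = 0.000273). HDAC2, HDAC3 and HDAC8 were not called against Control in either knockdown, except that HDAC8 in DNMT3B knockdown (89.9%, adjusted p = 0.0503) passed without Control replicate 1 (0.0312) or DNMT3B knockdown replicate 3 (0.039).

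Between the knockdowns 6 of the 11 HDAC genes were called, against 45.2% of all genes. HDAC1, HDAC2, HDAC4, HDAC7 and HDAC11 were higher with DNMT1 knockdown and HDAC9 lower. Only the calls of HDAC1 (0.15 on the log2 scale, edgeR adjusted p = 0.000506) and HDAC4 held whichever library was left out. HDAC11 (0.24, adjusted p = 0.0135) was lost without DNMT1 knockdown replicate 2 (0.0536). HDAC7 (0.12, adjusted p = 0.0239) was lost without DNMT1 knockdown replicate 2 (0.107) or 3 (0.0959) or DNMT3B knockdown replicate 2 (0.152) or 3 (0.107). HDAC9 (-0.24, adjusted p = 0.0392) was lost without DNMT1 knockdown replicate 1 (0.137) or 3 (0.116) or DNMT3B knockdown replicate 1 (0.0746), 2 (0.0999) or 3 (0.0518). HDAC2 (0.08, adjusted p = 0.0489) was lost without any 1 library other than DNMT1 knockdown replicate 2 (0.0536 to 0.149).

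Of the 7 sirtuin genes, which encode NAD-dependent deacylases, 1 rose and 2 fell in DNMT1 knockdown (21% and 20.8% of all genes). In DNMT3B knockdown 3 rose and 0 fell (23.1% and 24.6% of all genes). In the direct comparison 6 of 7 were called, 4 of them lower with DNMT1 knockdown, against 45.2% of all genes and 62.2% of members. The 2 higher, SIRT3 and SIRT5, were lost without DNMT1 knockdown replicate 2 (adjusted p = 0.0966 and 0.106), and SIRT5 also without DNMT1 knockdown replicate 1 (0.125) or DNMT3B knockdown replicate 1 (0.12). SIRT1, the main nuclear sirtuin, was 63.4, 63.9 and 62.7 CPM in Control, 54.1, 49.7 and 52.4 in DNMT1 knockdown and 62.5, 64.7 and 63.8 in DNMT3B knockdown (82.3%, edgeR adjusted p = 1.33e-06 in DNMT1 knockdown). SIRT7, a nucleolar sirtuin, was 36.6, 39.2 and 37.8 CPM, 32.4, 32.9 and 30.7 CPM and 38, 39.6 and 39.5 CPM in the same order (84.7%, adjusted p = 0.000129 in DNMT1 knockdown). In both genes DNMT1 knockdown was below all other libraries. SIRT2, which deacetylates tubulin and H4K16, was 17.6, 19.5 and 17.6 CPM in Control, 17.2, 18.4 and 17.8 in DNMT1 knockdown and 23.6, 24.5 and 23.4 in DNMT3B knockdown (131%, adjusted p = 1.51e-06 in DNMT3B knockdown). SIRT6 was 111% in DNMT3B knockdown (adjusted p = 0.0114), a call lost without Control replicate 1 (0.059) or DNMT3B knockdown replicate 1 (0.0587).

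SIRT4, a mitochondrial sirtuin at a low level, was 2.45, 2.09 and 2.79 CPM in Control, 3.22, 3.03 and 3.07 in DNMT1 knockdown and 3.48, 3.23 and 3.75 in DNMT3B knockdown. All knockdown libraries were above Control, at 143% in DNMT3B knockdown (edgeR adjusted p = 0.00187) and 126% in DNMT1 knockdown (adjusted p = 0.0451). The DNMT1 knockdown call was lost with DESeq2 (adjusted p = 0.174), with no low-count filter (0.0577), and without any single one of Control replicate 1 (0.0908), Control replicate 2 (0.181), DNMT1 knockdown replicate 1 (0.112), replicate 2 (0.0691) or replicate 3 (0.0862).

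**Figure D3:**
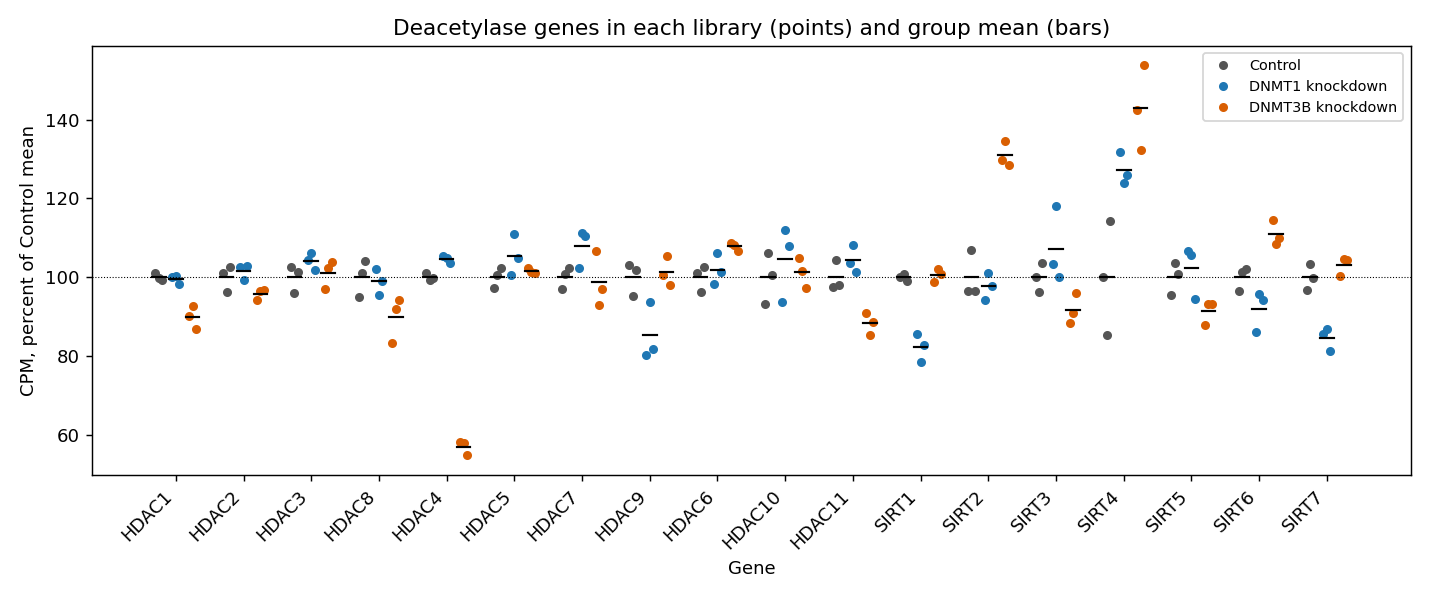
CPM of the HDAC and sirtuin genes in each library as a percent of the gene's Control mean (y axis), with points for libraries, bars for group means and the dotted line at 100%. HDAC4 in DNMT3B knockdown is the farthest below 100%, SIRT2 and SIRT4 in DNMT3B knockdown are above it, and SIRT1 and SIRT7 in DNMT1 knockdown are below it.

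Of 15 subunits of the complexes that carry class I deacetylases, 11 were called in DNMT3B knockdown, 4 higher and 7 lower. In DNMT1 knockdown 4 were called, 3 higher and 1 lower, with 1 higher without Control replicate 3 or DNMT1 knockdown replicate 3. The difference in these counts was not tested. Of all genes 47.7% were called in DNMT3B knockdown and 41.8% in DNMT1 knockdown. TBL1XR1, of the NCOR complex, was 391, 381 and 371 CPM in Control, 406, 378 and 388 in DNMT1 knockdown and 251, 266 and 258 in DNMT3B knockdown (67.8%, edgeR adjusted p = 1.62e-14). MBD3, of the NuRD complex, was 89.9% (adjusted p = 0.000905) and 69.7% of Control (adjusted p = 4.06e-13). GPS2, another NCOR subunit, rose in DNMT3B knockdown to 138% (adjusted p = 7.12e-10). NCOR1 rose to 117% in DNMT1 knockdown (adjusted p = 9.17e-06).

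Of the 8 lysine acetyltransferase genes, 2 rose and 2 fell in DNMT1 knockdown (21% and 20.8% of all genes). In DNMT3B knockdown 2 rose and 3 fell (23.1% and 24.6% of all genes). KAT2B, also known as PCAF, was 11.9, 10.3 and 10.4 CPM in Control, 8.58, 8.31 and 8.64 in DNMT1 knockdown and 10.5, 10.4 and 11.3 in DNMT3B knockdown. It had the largest fall by fold of any member in DNMT1 knockdown (78.2%, log2 -0.35 ± 0.080, edgeR adjusted p = 0.000544). Its paralogue KAT2A, also known as GCN5, fell in DNMT3B knockdown from 90, 92 and 88.6 CPM to 80.8, 77.8 and 75.8 (86.7%, adjusted p = 2.83e-05) and was 102% in DNMT1 knockdown. KAT6B rose to 113% in DNMT1 knockdown (adjusted p = 0.00136), and KAT8, which acetylates H4K16, fell to 90.4% in DNMT3B knockdown (adjusted p = 0.00726). KAT8 was also the second fall in DNMT1 knockdown (92.6%, adjusted p = 0.041). That call did not hold without Control replicate 2 (0.0845) or 3 (0.166), DNMT1 knockdown replicate 1 (0.0622), 2 (0.0668) or 3 (0.166), or DNMT3B knockdown replicate 2 (0.053) or 3 (0.0559). In DNMT3B knockdown KAT7 was 108% (adjusted p = 0.00702, and 0.0538 without Control replicate 3). KAT6A was 106% (adjusted p = 0.0232), and lost without Control replicate 3 (0.075) or DNMT3B knockdown replicate 1 (0.0534) or 3 (0.0509). KAT6B passed as a fall in DNMT3B knockdown without Control replicate 3 (0.0259) or DNMT3B knockdown replicate 1 (0.0105), from 0.0521 with all libraries. Among the writers outside the family names, EP300, the H3K27 acetyltransferase p300, was 131, 135 and 132 CPM in Control, 199, 216 and 217 in DNMT1 knockdown and 193, 169 and 177 in DNMT3B knockdown. It had the largest rise of all listed partners in DNMT1 knockdown (159%, adjusted p = 9.18e-15), with 135% in DNMT3B knockdown (adjusted p = 2.13e-10). Its paralogue CREBBP rose to 114% in DNMT3B knockdown (adjusted p = 8.74e-05) and was 97.7% of Control in DNMT1 knockdown (adjusted p = 0.495), with an adjusted p of 9.94e-06 between the knockdowns.

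Of 7 tested bromodomain genes, whose proteins read acetyl-lysine, 2 rose and 3 fell in DNMT1 knockdown (21% and 20.8% of all genes). In DNMT3B knockdown 3 rose and 2 fell (23.1% and 24.6% of all genes). BRD3, of the BET family, was 116, 121 and 113 CPM in Control, 126, 129 and 130 in DNMT1 knockdown and 94.9, 87.2 and 95 in DNMT3B knockdown. The 3 groups were fully separate, with 110% of Control in DNMT1 knockdown (edgeR adjusted p = 0.00328) and 79.3% in DNMT3B knockdown (adjusted p = 1.59e-08). BRD2, another BET gene, was 94.5% of Control in DNMT1 knockdown (adjusted p = 0.0394), and not called without Control replicate 1 (0.0774), 2 (0.0997) or 3 (0.0815), DNMT1 knockdown replicate 1 (0.0949) or 2 (0.218), or DNMT3B knockdown replicate 3 (0.0569). BRD7, of the PBAF remodeller, was 83.5, 88.7 and 81 CPM in Control, 97.1, 94.5 and 100 in DNMT1 knockdown and 103, 99.3 and 101 in DNMT3B knockdown (115%, adjusted p = 6.42e-05, and 120%, adjusted p = 1.06e-06). Exons of other genes on the opposite strand cover 40.7% of BRD7 and 20.9% of BRD3 (BRD3OS), so their reads cannot be told apart without the strand setting. BRD9, of the non-canonical BAF remodeller, fell to 87.6% in DNMT3B knockdown (adjusted p = 0.000201). In DNMT1 knockdown it was 92.3% (adjusted p = 0.0183), and not called without Control replicate 2 (0.0779) or DNMT1 knockdown replicate 1 (0.0673) or 3 (0.0699).

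Of the 7 tested numbered arginine methyltransferase genes, 5 were called lower and 0 higher in DNMT1 knockdown, where 20.8% of all genes were lower and 21% higher. PRMT1, which accounts for most asymmetric arginine dimethylation, was 367, 364 and 370 CPM in Control, 323, 316 and 324 in DNMT1 knockdown and 329, 338 and 331 in DNMT3B knockdown (87.4%, edgeR adjusted p = 8.11e-06, and 90.6%, adjusted p = 0.000355). PRMT2 (adjusted p = 0.0421), PRMT3 (0.0206), PRMT5 (0.0233) and PRMT9 (0.0213) were called at between 86.5 and 93.6% of Control in DNMT1 knockdown. Without Control replicate 1 or DNMT1 knockdown replicate 3 only 1 of the 5 calls was left, that of PRMT1, and without DNMT1 knockdown replicate 2 there were 2. In DNMT3B knockdown 1 rose and 2 fell (23.1% and 24.6% of all genes). PRMT6, an H3R2 methyltransferase, was 18.3, 17.1 and 16.9 CPM in Control, 17, 16.9 and 16.3 in DNMT1 knockdown and 13.3, 13.8 and 14.6 in DNMT3B knockdown (79.6%, adjusted p = 7.71e-05 in DNMT3B knockdown). PRMT7 was not called. CARM1, known as PRMT4 but outside the numbered names, rose in DNMT1 knockdown from 97.1, 96.3 and 96.2 CPM to 121, 127 and 125 (128%, adjusted p = 8.22e-10) and was 99% of Control in DNMT3B knockdown (adjusted p = 0.773).

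Of 14 other listed writers, 7 rose and 1 fell in DNMT3B knockdown (7 and 2 without Control replicate 1), where 23.1% of all genes were higher and 24.6% lower. DOT1L, the H3K79 methyltransferase, went from 223, 235 and 233 CPM to 304, 282 and 291 (127%, edgeR adjusted p = 4.51e-09) and was 100% of Control in DNMT1 knockdown. PRDM2 was 115% (adjusted p = 0.00112) and 127% (adjusted p = 3.92e-07). Of the 13 partners of bromodomain and HP1 proteins, 6 fell and 0 rose in DNMT1 knockdown (20.8% and 21% of all genes). In DNMT3B knockdown 5 fell and 1 rose (24.6% and 23.1% of all genes). That 1, BPTF, was lost without Control replicate 1 (edgeR adjusted p = 0.107) or 3 (0.167) or DNMT3B knockdown replicate 1 (0.125) or 3 (0.0735). BRWD3 fell to 83% in DNMT3B knockdown (adjusted p = 5.74e-06) and BRWD1 to 87.6% in DNMT1 knockdown (adjusted p = 5.94e-05). The chromatin assembly gene CHAF1B, which is active in S phase, was 90.4% (adjusted p = 0.00485) and 84.8% (adjusted p = 1.89e-05). TRIM28, the HP1-binding corepressor, was 102 and 104% of Control and was not called.

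When the knockdowns were compared with each other, 61 of 98 members (62.2%) were called, 34 higher and 27 lower with DNMT1 knockdown, against 45.2% of all tested genes (24.3% higher, 20.9% lower). With only genes of at least 2 CPM on average these were 62 of 98 members and 7033 of 13486 genes. Libraries of the knockdowns did not overlap for 70 members, against 52.2% of all genes. Called differences of at least 1.2-fold numbered 22 (23.2% of all genes) and of at least 1.5-fold 1 (6.64% of all genes), again HDAC4. All 4 H3K9 methyltransferase genes were called, EHMT1, EHMT2 and SUV39H2 higher and SUV39H1 lower with DNMT1 knockdown. Among PRC1 chromobox genes, CBX6, CBX7 and CBX8 were higher and CBX2 lower. None of the 4 H3K36 methyltransferase genes was called in edgeR (adjusted p from 0.0615 to 0.629), and NSD2 passed without DNMT3B knockdown replicate 1 (0.0431). With all 9 libraries fitted, 18 members were called in none of the 3 comparisons, of which 8 passed in at least 1 when a single library was left out. The share of all tested genes called in none was not counted. The 18 members included SETD1B, SETD4, SETD9, NSD2, EZH1, CBX5, KDM1B, KDM2A, KDM5A, KDM6A, KDM8, HDAC3, HDAC5, HDAC8, HDAC10, KAT5 and PRMT7.

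**Figure D4:**
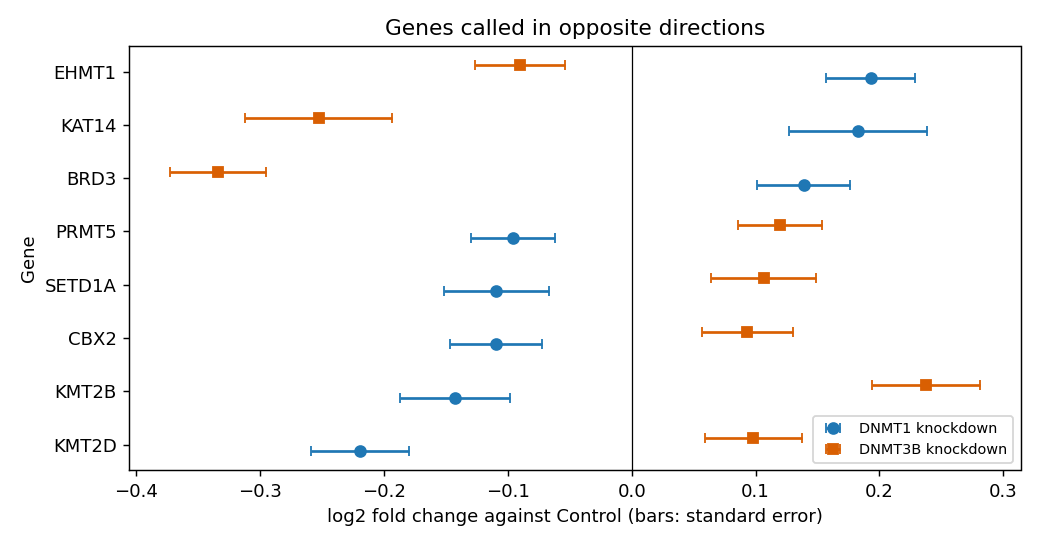
Log2 fold change against Control (x axis) with its standard error for the 8 members called higher in one knockdown and lower in the other, circles for DNMT1 knockdown and squares for DNMT3B knockdown. BRD3, KAT14 and EHMT1 lie above 0 in DNMT1 knockdown and below it in DNMT3B knockdown, and the other 5 the other way round.

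Against the shared Control libraries, 8 members were called in opposite directions by the knockdowns, and all 8 differed in the direct test. How many of all tested genes were called in this way was not counted. A gene called on opposite sides of Control is nearly bound to differ in the direct test, which uses the same knockdown libraries. BRD3, described above, and KAT14 kept both calls whichever library was left out. KAT14, an acetyltransferase of the ATAC complex, was 21.2, 20.1 and 20 CPM in Control, 22.3, 23.8 and 23.6 in DNMT1 knockdown and 16.6, 18 and 17.2 in DNMT3B knockdown. Its groups did not overlap, with 114% of Control (edgeR adjusted p = 0.00878) in DNMT1 knockdown and 83.9% (adjusted p = 0.000709) in DNMT3B knockdown. KMT2B was 125, 135 and 130 CPM in Control, 108, 121 and 123 in DNMT1 knockdown and 161, 143 and 154 in DNMT3B knockdown, again with no overlap. Its lower call in DNMT1 knockdown (adjusted p = 0.00973) was lost without Control replicate 2 (0.0507) or DNMT1 knockdown replicate 1 (0.155).

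For the other 5 the changes against Control were between -0.22 and 0.19 on the log2 scale, with the Control mean between those of the knockdowns. EHMT1 was 137, 146 and 138 CPM in Control, 156, 167 and 156 in DNMT1 knockdown and 133, 133 and 129 in DNMT3B knockdown. The fall in DNMT3B knockdown was small (93.9%, edgeR adjusted p = 0.0414) and was lost without Control replicate 2 (0.237) or 3 (0.0549), DNMT1 knockdown replicate 3 (0.0537), or DNMT3B knockdown replicate 1 (0.0587), 2 (0.0604) or 3 (0.173). CBX2 was 135 ± 3 CPM in Control, 125 ± 5.8 in DNMT1 knockdown and 144 ± 4.1 in DNMT3B knockdown. Its lower call (adjusted p = 0.0169) was lost without Control replicate 3 (0.0841) or DNMT1 knockdown replicate 1 (0.16), and its higher call (0.0357) without Control replicate 1 (0.137) or DNMT3B knockdown replicate 1 (0.11) or 3 (0.102). PRMT5, the main symmetric arginine methyltransferase, was 174 ± 3.3, 163 ± 2.4 and 189 ± 6 CPM in the same order, with an antisense gene, PRMT5-AS1, over 34.8% of its exon bases. Its lower call (0.0233) was lost without Control replicate 1 (0.121) or DNMT1 knockdown replicate 2 (0.102) or 3 (0.0612).

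SETD1A libraries overlapped with Control in both knockdowns, and KMT2D libraries in DNMT3B knockdown. SETD1A was lower in DNMT1 knockdown at an edgeR adjusted p of 0.0376 and higher in DNMT3B knockdown at 0.0374. The first was lost without Control replicate 2 (0.252) or 3 (0.0647), DNMT1 knockdown replicate 1 (0.263) or 2 (0.119) or DNMT3B knockdown replicate 3 (0.0543), and the other without Control replicate 1 (0.216) or 3 (0.108) or DNMT3B knockdown replicate 1 (0.129) or 3 (0.112). The higher call of KMT2D in DNMT3B knockdown (0.0399) was lost without Control replicate 1 (0.139) or 3 (0.125) or DNMT3B knockdown replicate 1 (0.203) or 3 (0.0799). With DESeq2 the calls of SETD1A (0.056 and 0.0861), of KMT2D in DNMT3B knockdown (0.0664), and of EHMT1 (0.0595) and CBX2 (0.0749) in DNMT3B knockdown did not pass either. The direct differences of all 8 held under each of these removals.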

How the data were processed

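The deposited table holds raw read counts per gene symbol for 9 libraries, and every column matched a sample by its labels. Per the submitters' processing notes, the authors used STAR, featureCounts, DESeq2 and GRCh38. The sources used here give no tool versions, gene annotation or strand setting. Counts depend on how the authors treated reads shared by overlapping or duplicated genes. Library totals were 18.8 to 33.7 M counts (M is 1e6), and no replicates agreed within counting noise (chi-square was 1.80 to 3.70 times its degrees of freedom).

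Counts were fitted with edgeR 4.0.16 (limma 3.58.1, R 4.3.3) by its quasi-likelihood test after filterByExpr and TMM scaling. All 9 libraries were in 1 fit with a mean per group, and 16660 genes were tested with Benjamini-Hochberg adjustment at 0.05. The common biological coefficient of variation was 2.96%. The standard error was the absolute log2 fold change over the square root of F. Percent of Control is the fitted fold change as a percent, which can differ slightly from the ratio of mean CPM. The fitting was tested on simulated data. Exon lengths and overlaps came from GENCODE v29, promoters from RefSeq (GRCh38.p14).

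Full values were given for the PRC2 core, for the 8 called members with the largest rise and the 8 with the largest fall per comparison (given 1 CPM or more in either group compared), and for members called in opposite directions, with 3 partners per list. Other members are named by role, and further partners were named after their values were seen. Some members entered the fits and counts but are not reported here by name. Members and lists were chosen with earlier results of these data known. Alternatives were DESeq2 1.42.0, its size factors, no TMM scaling, other low-count filters, only the groups compared, a replicate block and leaving out each library.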

Additional observations from a re-analysis of the deposited data

Results flagged for a closer look

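Each of 8 members was called against Control in opposite directions in the knockdowns, and each differed in the direct edgeR test of DNMT1 knockdown against DNMT3B knockdown over 3 libraries a group. Higher with DNMT1 knockdown were BRD3 by 0.47 on the log2 scale (edgeR adjusted p = 1.25e-11), KAT14 by 0.44 (4.63e-07) and EHMT1 by 0.28 (1.39e-07). Lower with DNMT1 knockdown were KMT2B at -0.38 (edgeR adjusted p = 2.18e-08), KMT2D at -0.32 (6.84e-08), SETD1A at -0.22 (0.000109), PRMT5 at -0.22 (4.61e-06) and CBX2 at -0.20 (4.04e-05). These 8 were picked out by their calls against Control, which share libraries with the direct test, so that test adds little to those calls. The share of all genes called in opposite directions was not counted.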

How the results depend on the processing

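The counts of called genes and members stayed within 1.5 times the reported ones under every alternative run. Leaving out each library in turn gave 5737 to 7111 called genes and 35 to 47 members in DNMT1 knockdown, 7032 to 8079 and 43 to 52 in DNMT3B knockdown, and 6658 to 7602 and 50 to 62 between the knockdowns. DESeq2 called 5551, 6517 and 6174 genes and 37, 47 and 50 members in that order. The labels number replicates 1 to 3 in each group, but same-numbered libraries did not deviate together (correlations across genes -0.061 to 0.042), so the numbers do not pair them. With the replicate number as a block, 6796, 7789 and 7379 genes and 40, 48 and 58 members were called. The 543 gene results followed over 16 settings included uncalled ones. Of these, 420 stayed as they were in all settings, either called in the same direction or not called. A call was lost in at least 1 setting for 81 results and gained in at least 1 for 42, and 0 changed sign while called. Depth limits mainly the low genes such as KDM4D, HDAC9 and SIRT4. Transcript counts do not measure protein, histone marks or methylation.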
